A study of Mus musculus with 14 samples.

Results

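The genes that break glucose down to lactate, and those of the pentose phosphate pathway that branches from it, were examined in sorted mouse lung macrophages after bleomycin. Members were taken by name: 37 of the 43432 genes in the deposited table. They cover glucose entry to pyruvate (22 genes), lactate formation, the pyruvate gate and lactate transport (7 genes), the pentose phosphate pathway (7 genes) and the transcription factor gene Hif1a. All 37 were in the table and all 37 passed the filter on low values, which asked that 2 or more libraries reach 10 normalized counts.

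The study drew SiglecF+ CD11c+ cells from digested whole lungs of male 129S1 mice, 10 to 12 weeks old, that had been given bleomycin (3 U/k in the labels) or water through the trachea. Bleomycin damages DNA, and in the airway it injures the lung and is used as a model of fibrosis. The cells were split by their surface MHCII, the molecule that presents peptides to helper T cells, into MHCII-high and MHCII-low fractions. Treated mice gave 4 groups of 3 libraries, both fractions at 2 weeks and at 4 weeks, and water-treated mice gave 2 libraries of MHCII-low cells (replicates 1 and 3). No MHCII-high control cells were analysed here, so in MHCII-high cells there was no bleomycin contrast to test. The labels do not say whether replicates were separate animals or pools, so p-values measure only the spread between these libraries, which may be technical. Values below are normalized counts, the authors' scaled gene counts, and where several are given they follow the order of the replicate numbers.

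Depth ran from 15106415 to 88059630 recovered reads per library, of which the members took 0.167% to 0.311%. The fewest reads for a member in any library were 5, for Pfkm in replicate 3 of the 4-week MHCII-high cells. On a principal component analysis of all genes tested, the first component (17.0% of the variance) parted MHCII-high libraries (53.1 to 84.2) from MHCII-low ones (-70.9 to -25.2). The second (12.3%) set apart replicate 3 of the 4-week MHCII-high cells at 146.4, beside -73.5 to 44.7 in the rest. Mitochondrial ribosomal RNA took 24.9%, 22.51% and 26.25% of reads in 2-week MHCII-high libraries and 3.42%, 18.32% and 12.71% in 2-week MHCII-low ones. At 4 weeks it took 8.12%, 28.99% and 21.13% with MHCII high and 3.12%, 23.15% and 5.1% with MHCII low. Controls had 21.67% and 24.08%. The 2-week MHCII-low libraries thus lay below both the 2-week MHCII-high libraries and the controls. In those contrasts a fit with this share as a covariate cannot fully part the share from the group. Its part in the differences between the fractions was not tested beyond that fit. The alveolar macrophage markers of a 14-gene list were present in every group, with summed levels from 414747.0 to 811719.5. In bulk samples like these, fewer cells of a type and less RNA per cell cannot be told apart.

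Glycolysis carries glucose through hexokinase, phosphofructokinase and aldolase to pyruvate, and gives ATP without oxygen when pyruvate is turned into lactate. The oxidative pentose phosphate steps make NADPH, which feeds reductive synthesis, glutathione reduction and the oxidative burst of phagocytes, and the non-oxidative steps return sugar phosphates to glycolysis. Resident alveolar macrophages live in a glucose-poor airspace and lean on lipids, while inflammatory macrophages are known for raised glycolysis. HIF-1, whose oxygen-regulated subunit is encoded by Hif1a, binds promoters at sites with the core ACGTG.

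The promoters of Slc2a1, Hk2 and Aldoc are shown because these 3 members fell between 2 and 4 weeks. Each window holds 300 bases around the RefSeq transcript start (GRCm38.p6), read 5′ to 3′ on the gene's strand, with capitals on ACGTG or its reverse complement CACGT. The windows are chr4:119108495-119108794 on the + strand for Slc2a1, chr6:82774405-82774704 on the - strand for Hk2 and chr11:78322823-78323122 on the + strand for Aldoc. A second Aldoc promoter in the table, chr11:78323948-78324247, has no match and is not shown.
Slc2a1: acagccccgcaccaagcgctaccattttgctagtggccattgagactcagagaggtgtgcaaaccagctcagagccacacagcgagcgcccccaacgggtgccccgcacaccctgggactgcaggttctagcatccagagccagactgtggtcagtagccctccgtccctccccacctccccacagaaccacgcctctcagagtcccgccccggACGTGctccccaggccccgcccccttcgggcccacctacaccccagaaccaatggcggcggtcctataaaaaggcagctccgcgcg
Hk2: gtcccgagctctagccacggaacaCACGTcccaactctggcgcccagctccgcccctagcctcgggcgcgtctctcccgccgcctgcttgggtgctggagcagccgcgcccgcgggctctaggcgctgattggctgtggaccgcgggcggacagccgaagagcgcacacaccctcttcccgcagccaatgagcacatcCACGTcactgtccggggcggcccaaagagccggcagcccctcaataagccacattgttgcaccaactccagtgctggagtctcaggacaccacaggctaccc
Aldoc: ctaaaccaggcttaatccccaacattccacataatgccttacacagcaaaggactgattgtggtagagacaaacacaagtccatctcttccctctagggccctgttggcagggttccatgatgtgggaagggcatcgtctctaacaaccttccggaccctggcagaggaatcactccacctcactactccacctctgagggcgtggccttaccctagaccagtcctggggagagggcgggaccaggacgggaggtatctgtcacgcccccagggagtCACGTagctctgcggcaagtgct

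The match in Slc2a1 begins at position -36 from the transcript start, those in Hk2 at -226 and -52, and that in Aldoc at 28. Of 36 members with a promoter in the RefSeq table, 19 had ACGTG on either strand in at least 1 window. By window it was 23 of 55 (41.8%), beside 6447 of 32851 (19.6%) over all promoters. The E-box CACGTG, which contains ACGTG, was in 10.9% of member windows and 7.15% of all. The antioxidant response core TGACNNNGC was in 9.09% of member windows and 12.4% of all, and the members that held it were Hk1, Aldoa, Slc16a1, G6pdx and Pgd. These matches describe letters in the windows only, and were set against no binding data.

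In all, 8 comparisons were made, each as a contrast in 1 limma fit over all genes and all 14 libraries, with a call at an adjusted p of 0.05. In total 9 members were called at least once (Slc2a1, Slc2a3, Hk2, Pfkfb3, Aldoa, Aldoc, G6pdx, Pgd and Taldo1) and 28 never. In MHCII-high against MHCII-low cells at 2 weeks, 2 members were called, Slc2a3 higher (as were 2.29% of all genes tested) and Aldoc lower (0.581%), with 2.87% of genes called in either direction. At 4 weeks 2 were called higher, Slc2a3 and Hk2 (1.96% of all genes), and none lower (0.535%), with 2.5% in either direction. Over the mean of both times 7 of 37 members (18.9%) were called, Slc2a3, Hk2 and Pfkfb3 higher and Aldoa, G6pdx, Pgd and Taldo1 lower. Of all genes 7.21% were called there, 5% higher and 2.21% lower. Among the 11384 genes that reached 100 normalized counts in 2 or more libraries, 1291 were called, 833 higher and 458 lower. With that filter the 7 member calls were kept, and Ldhb (higher) and Aldoc (lower) were added. After 2 weeks of bleomycin, MHCII-low cells had 2 members above control, Slc2a1 and Aldoc (1.48% of all genes, and 1.91% in either direction).

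At 4 weeks against control limma called no member, with 7 at an unadjusted p under 0.05, and 0.046% of all genes were called. By the other tools this count was 0 with edgeR and 1 with DESeq2, which called Slc2a1 higher (0.99, adjusted p 0.038). Between 2 and 4 weeks Slc2a1, Hk2 and Aldoc fell in MHCII-low cells, as did 0.748% of all genes (0.857% in either direction). In MHCII-high cells Slc2a1 and Aldoc fell, as did 0.759% of all genes (1.07% in either direction). The change of the MHCII difference with time, an interaction, was called for no member by limma, with 2 at an unadjusted p under 0.05 and none with edgeR or DESeq2. Of all genes tested limma also called 0 (0%) there, with 987 at an unadjusted p under 0.05, edgeR called 0 and DESeq2 56. The median member moved 0.32 (log2) in 2-week MHCII-low cells against control, where the median over all genes was -0.09, and 26 members lay above 0 and 11 below. With the GC trend removed, the median over all genes in that comparison became 0.05, and that of the interaction went from -0.06 to 0.05. With the minimum of 100 normalized counts, the median over all genes for 2-week MHCII-low cells against control was 0.02. The medians of the members over all settings ran from 0.16 to 0.44 for 2-week MHCII-low cells against control. In the comparison of MHCII-high with MHCII-low cells over both times they ran from -0.05 to 0.09. Normalized counts per kb of exon, the scale on which levels of different genes are compared, ran from 19.3 for Pfkm to 4120.2 for G6pdx. The exon length given per gene can differ from that of its transcript. For Gapdh it was 4133 bases, where its longest coding transcript holds 1371 windows of 50 bases. These values were 7245 and 3910 for Slc2a3, and 2853 and 3211 for Slc2a1. Levels per kb and isozyme shares are therefore approximate between genes. The plot of fold changes gives each member's value in 4 of these comparisons.

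**Figure D1:**
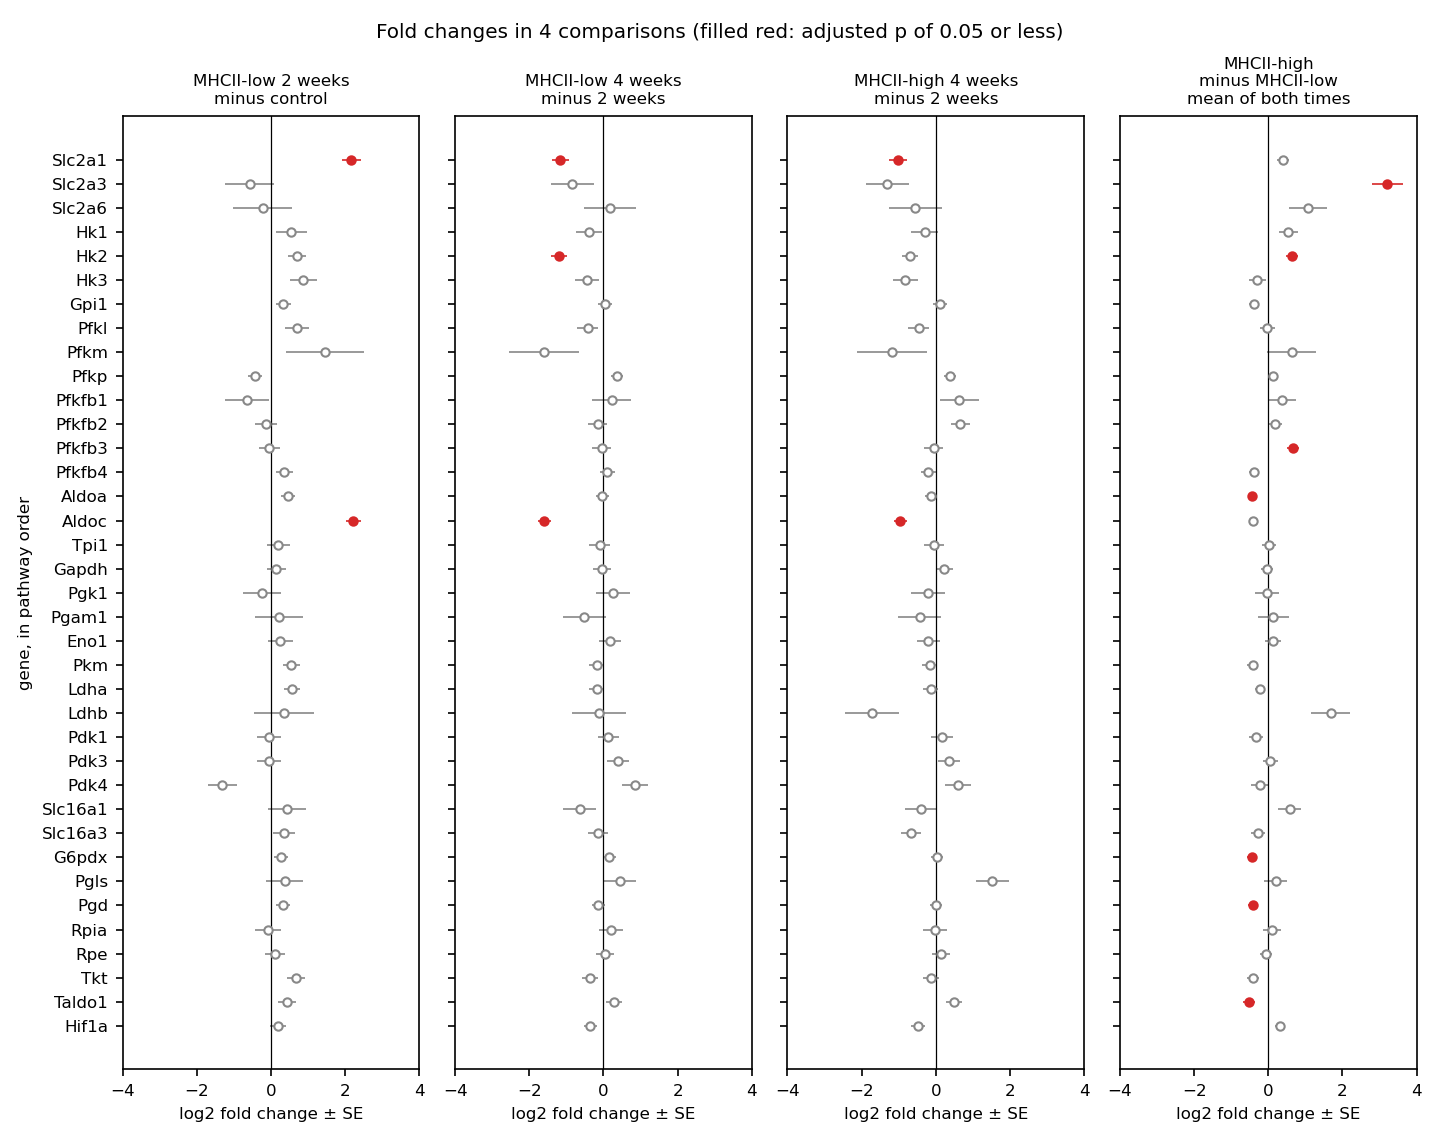
Log2 fold change (x axis, ± SE from limma) of the 37 members in pathway order (y axis) in 4 comparisons, with filled red points at an adjusted p of 0.05 or less. Slc2a1 and Aldoc are the called members to the right of 0 in 2-week MHCII-low cells against control, and 3, 2 and 7 members are called in the others.

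Glucose enters macrophages through facilitative transporters, of which 3 were members: Slc2a1 (GLUT1), Slc2a3 (GLUT3, of high affinity) and Slc2a6. Slc2a1 (ENSMUSG00000028645, chr4:119108711-119137983, mm10) had 370.4 and 329.7 normalized counts in the controls. In MHCII-low cells it had 1146, 1529 and 2177 at 2 weeks and 682, 659 and 739.9 at 4 weeks. In MHCII-high cells it had 1646, 2089.7 and 2176 at 2 weeks and 837, 968 and 1108 at 4 weeks. Every treated library lay above both controls, and every 2-week library above every 4-week library of its own fraction. The rise over control in 2-week MHCII-low cells was 2.16 ± 0.26 (log2, 4.46-fold, limma adjusted p 3e-05). From 2 to 4 weeks it fell by 1.17 ± 0.23 in MHCII-low cells (limma adjusted p 0.011) and by 1.02 ± 0.23 in MHCII-high cells (limma adjusted p 0.034). Without replicate 3 of the 2-week or replicate 2 of the 4-week MHCII-low cells the first of these falls was not called (limma adjusted p up to 0.11). The second was lost under 9 of 23 alternatives (adjusted p up to 0.12), namely edgeR, no filter, the mitochondrial share as a covariate (limma adjusted p 0.06) and leaving out replicate 2 of the 2-week MHCII-low, any 2-week MHCII-high or replicate 1 or 2 of the 4-week MHCII-high cells. Against MHCII-low cells, the MHCII-high difference was 0.40 ± 0.16 over both times (limma adjusted p 0.15).

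Slc2a3 (ENSMUSG00000003153, chr6:122727809-122801640) differed by MHCII fraction. MHCII-high cells had 543.9, 699 and 631 normalized counts at 2 weeks and 210.2, 213 and 346 at 4 weeks. MHCII-low cells had 44.7, 35 and 112 at 2 weeks and 31.7, 57.8 and 16.0 at 4 weeks, and the controls 147 and 48.2. All 6 MHCII-high libraries lay above all 8 MHCII-low ones. The difference was 3.45 ± 0.58 at 2 weeks (log2, 10.9-fold, limma adjusted p 0.0013) and 2.97 ± 0.58 at 4 weeks (7.83-fold, limma adjusted p 0.0049). It was called in each of the 24 alternatives at both times, and with the mitochondrial share as a covariate its limma adjusted p was 0.027 and 0.028. The MHCII-low values rest on as few as 15 reads, and the fold is on a log2(value + 1) scale. Slc2a6, whose mean level per kb of exon was 25.0 beside 30.9 for Slc2a3 and whose group means were 53.35 to 146.3 normalized counts, was called in no comparison (0.22 was its lowest limma adjusted p). As a share of the 3 transporters per kb of exon, Slc2a3 made up 10.5% ± 0.737 (SD, n = 3) at 2 weeks where MHCII was high and 1.42% ± 0.517 (SD, n = 3) where it was low. At 4 weeks these shares were 8.71% ± 1.35 and 1.87% ± 1.21 (SD, n = 3 each). The MHCII-low controls had 12.5% and 4.67%, the first of them above every MHCII-high library, so the share did not part the fractions once the controls were included. Slc2a1 held the greater part in every library, from 78% to 97.8%.

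**Figure D2:**
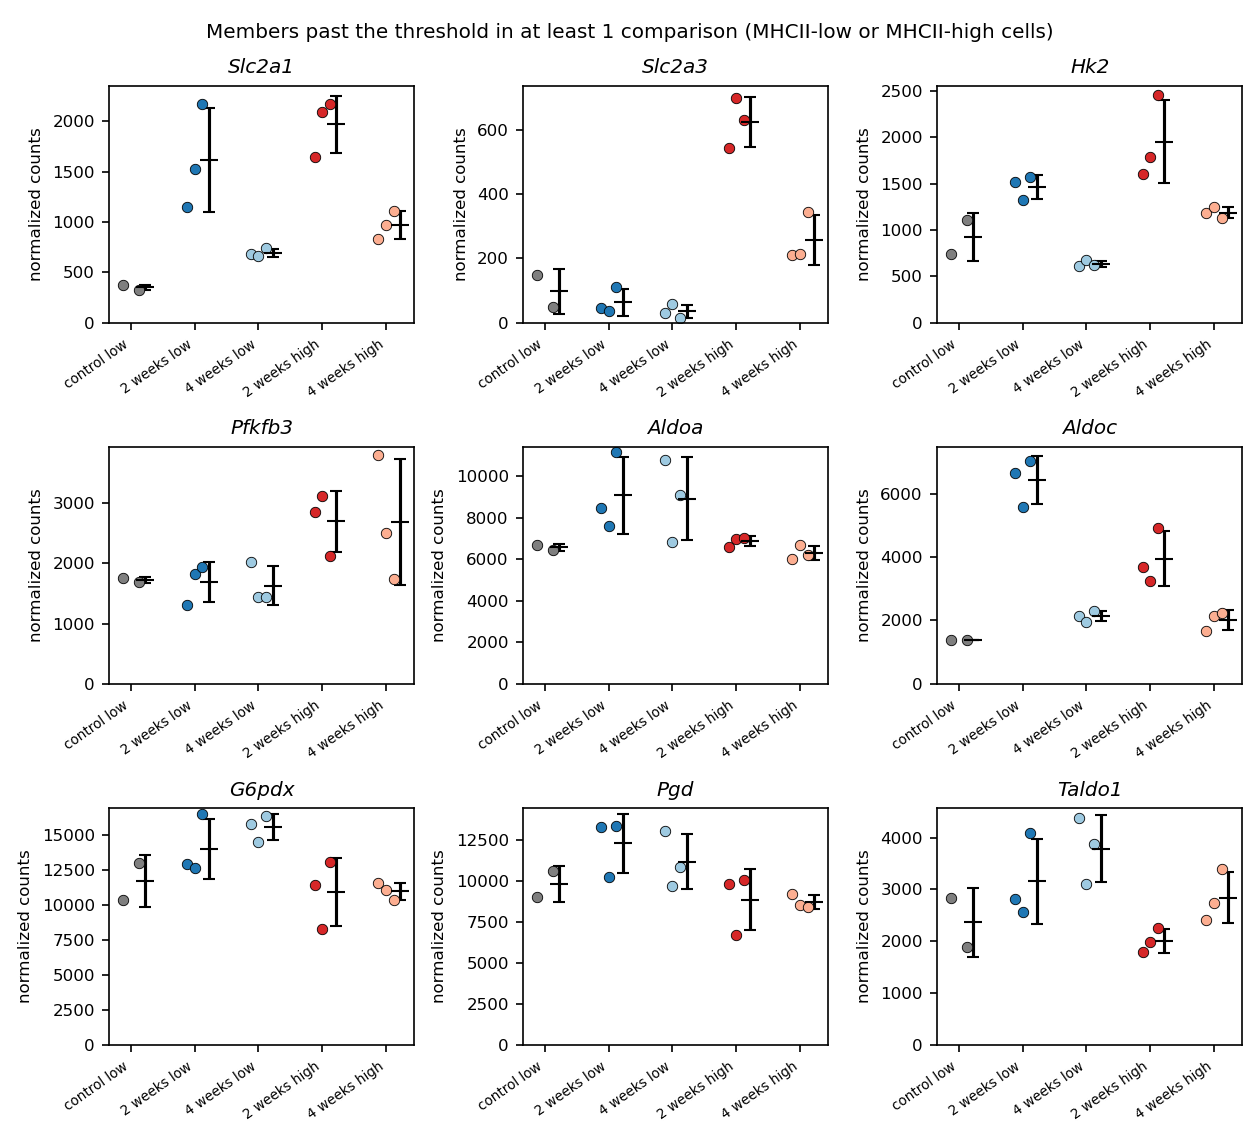
Normalized counts (y axis, from 0) of the 9 members called in at least 1 comparison, with 1 point per library, by group (x axis), and the group mean ± SD beside them. Slc2a1 and Aldoc are lowest in the controls and highest at 2 weeks, and Slc2a3 is high in the 6 MHCII-high libraries.

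Hexokinase traps glucose in the cell as glucose 6-phosphate. Hk2 (ENSMUSG00000000628, chr6:82725025-82774454), the inducible hexokinase, had 740.5 and 1106 normalized counts in the controls. MHCII-low cells had 1515, 1322 and 1568 at 2 weeks and 617, 676 and 622 at 4 weeks, so that the 4-week libraries lay below the controls. MHCII-high cells had 1608, 1789.9 and 2462 at 2 weeks and 1182, 1247 and 1129.5 at 4 weeks, above the MHCII-low libraries at each time. From 2 to 4 weeks Hk2 fell by 1.20 ± 0.21 in MHCII-low cells (0.436 of the level, limma adjusted p 0.0037), under every alternative. In MHCII-high cells the change was -0.70 ± 0.21 (limma adjusted p 0.11, DESeq2 adjusted p 0.028). The difference between these changes, the interaction, was 0.50 ± 0.30 (limma adjusted p 0.9). MHCII-high cells exceeded MHCII-low cells by 0.89 ± 0.21 at 4 weeks (1.86-fold, limma adjusted p 0.022) and by 0.64 ± 0.15 over both times (1.56-fold, limma adjusted p 0.0093). With the mitochondrial share as a covariate these were 0.86 (limma adjusted p 0.074) and 0.60 (limma adjusted p 0.12), and the 4-week call was also lost with edgeR and without any 1 of the 3 MHCII-low libraries or replicate 2 of the MHCII-high ones (adjusted p up to 0.088). Hk1 and Hk3 were not called, with per-group means of 394.6 to 836.9 and 263.2 to 496.2 normalized counts. Per kb of exon Hk2 made up 55.5% ± 10.9 (SD, n = 2) of the 3 hexokinases in controls. At 2 weeks its share was 54.6% ± 4.83 with MHCII low and 59.2% ± 9.41 with MHCII high, and at 4 weeks 41.3% ± 3.36 and 56.2% ± 8.17 (SD, n = 3 each), so that the fractions overlapped at 2 weeks and did not at 4 weeks.

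Glucose 6-phosphate isomerase (Gpi1) and phosphofructokinase-1 (Pfkl, Pfkm, Pfkp), which commits sugar to glycolysis, gave no call with limma. Gpi1 had 3406 and 2634 normalized counts in controls and 3933, 3229 and 4193 in 2-week MHCII-low cells. Its other values were 5072, 3390.3 and 3412 in 4-week MHCII-low, 3062, 2621 and 2784 in MHCII-high at 2 weeks and 3155, 2584 and 3432 at 4 weeks. The 2-week MHCII-high libraries were all below the MHCII-low ones, but over both times the difference was -0.39 ± 0.13 (limma adjusted p 0.082, edgeR adjusted p 0.037, DESeq2 adjusted p 0.035). Pfkp had the highest level per kb of the 3 phosphofructokinase subunits (457.7, beside 112.5 for Pfkl and 19.3 for Pfkm). It had 4683 and 4743 normalized counts in controls, 3374, 3739 and 3372 in 2-week MHCII-low cells and 4922, 4300.1 and 4341 in 4-week MHCII-low cells. In MHCII-high cells it had 3615, 4468 and 3553 at 2 weeks and 6102, 4465 and 4519 at 4 weeks. The 2-week MHCII-low libraries lay below the controls and below the 4-week libraries, with a change from control of -0.43 ± 0.18 (limma adjusted p 0.3). Pfkl went the other way there, from 361.4 ± 3.39 (SD, n = 2) to 611.2 ± 201.6 (SD, n = 3), also without a call (0.70 ± 0.32, limma adjusted p 0.36). Pfkm had group means of 21.87 to 98.03.

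PFKFB enzymes set the level of fructose 2,6-bisphosphate, the activator of phosphofructokinase-1, and of the 4 isozymes limma called only Pfkfb3, in 1 comparison. Pfkfb3 (ENSMUSG00000026773, chr2:11471433-11554077), the isozyme with the strongest kinase activity, had 1761 and 1688 normalized counts in controls. MHCII-low cells had 1304, 1829.6 and 1939.8 at 2 weeks and 2015, 1438 and 1444 at 4 weeks. MHCII-high cells had 2853, 3114 and 2127 at 2 weeks, all above the MHCII-low ones, and 3809, 2504 and 1738 at 4 weeks, where the groups overlapped. Over both times it was 0.67 ± 0.17 higher in MHCII-high cells (1.59-fold, limma adjusted p 0.02). The call was lost under 7 of 24 alternatives (limma adjusted p up to 0.07): with no filter and without replicate 1 of the 2-week MHCII-low, 2 or 3 of the 4-week MHCII-low, 1 or 2 of the 2-week MHCII-high or 1 of the 4-week MHCII-high cells. Without replicate 3 of the 4-week MHCII-high cells the difference was 0.81 (limma adjusted p 0.003).

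Pfkfb4 was the isozyme with the highest level per kb (646.7). It had 2058 and 1687 normalized counts in controls, 2235, 1981 and 3066 in 2-week MHCII-low and 3247, 2308 and 2239 in 4-week MHCII-low cells. MHCII-high cells had 2096, 1815 and 2154 at 2 weeks and 1534, 1804 and 1949.8 at 4 weeks. Its difference over both times was -0.39 ± 0.14 (limma adjusted p 0.099, DESeq2 adjusted p 0.042). Pfkfb1 and Pfkfb2 had group means of 82.87 to 157.6 and 597.1 to 971.4 normalized counts. Per kb, Pfkfb3 made up 33.3% ± 5.53 (SD, n = 3) of the family where MHCII was high at 2 weeks and 21.1% ± 3.95 (SD, n = 3) where it was low. Controls had 24.6% ± 0.942 (SD, n = 2), and at 4 weeks the shares were 33.2% ± 11.4 and 19.5% ± 0.359 (SD, n = 3 each).

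Aldolase splits fructose 1,6-bisphosphate, and its gene Aldoc, best known as the isozyme of brain, had the lowest adjusted p of any member against control. Aldoc (ENSMUSG00000017390, chr11:78322968-78327781) had 1376 and 1377 normalized counts in the controls. MHCII-low cells had 6659, 5586 and 7038 at 2 weeks and 2136, 1963 and 2289 at 4 weeks. MHCII-high cells had 3685, 3255 and 4916 at 2 weeks and 1667, 2145 and 2236 at 4 weeks. The 2-week MHCII-low libraries stood above all others, the 2-week MHCII-high ones came next, and both 4-week groups overlapped each other above the controls. Aldoc rose by 2.22 ± 0.20 over control in 2-week MHCII-low cells (4.64-fold, limma adjusted p 6.9e-07). From 2 to 4 weeks it fell by 1.59 ± 0.18 in MHCII-low cells (0.332 of the level, limma adjusted p 3.8e-05) and by 0.96 ± 0.18 in MHCII-high cells (0.514 of the level, limma adjusted p 0.011). The first 2 of these held under all 23 alternatives, and the third was lost without replicate 3 of the 2-week MHCII-high cells (limma adjusted p 0.079). At 2 weeks MHCII-high cells had 0.609 of the MHCII-low level (-0.72 ± 0.18, limma adjusted p 0.033), a call lost under 6 of 24 alternatives (limma adjusted p up to 0.19). These were no filter, the mitochondrial share as a covariate (limma adjusted p 0.12) and leaving out replicate 1 or 3 of the MHCII-low or 1 or 2 of the MHCII-high cells. Over both times the difference was -0.40 ± 0.13 (limma adjusted p 0.061, edgeR adjusted p 0.039, DESeq2 adjusted p 0.028). The same 2-week MHCII-low libraries enter each of these contrasts except the fall in MHCII-high cells, so the contrasts are not independent.

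Aldoa (ENSMUSG00000030695, chr7:126795234-126809108), the common isozyme, was the more abundant per kb (2764.1 beside 1014.1). It had 6688 and 6456 normalized counts in controls, 8448, 7616 and 11146 in 2-week MHCII-low and 10799, 6842 and 9112 in 4-week MHCII-low cells. MHCII-high cells had 6588, 6987 and 7016 at 2 weeks and 6015, 6668 and 6189 at 4 weeks. All MHCII-high libraries lay below the MHCII-low ones of their time, and over both times Aldoa was lower by 0.43 (SE 0.12, 0.741 of the level, limma adjusted p 0.032). That call was lost under 10 of 24 alternatives, with a limma adjusted p of 0.33 with the mitochondrial share as a covariate and 0.051 without replicate 3 of the 4-week MHCII-high cells. The others were no filter and leaving out replicate 3 of the 2-week MHCII-low, 1 or 3 of the 4-week MHCII-low, any 2-week MHCII-high or 1 of the 4-week MHCII-high cells. As a share of both aldolases per kb, Aldoc went from 15.0% ± 0.322 in controls (SD, n = 2) to 37.6% ± 2.64 (SD, n = 3) at 2 weeks and 17.1% ± 2.62 (SD, n = 3) at 4 weeks with MHCII low. In MHCII-high cells it was 32.5% ± 4.49 at 2 weeks and 21.2% ± 2.21 at 4 weeks (SD, n = 3 each).

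**Figure D3:**
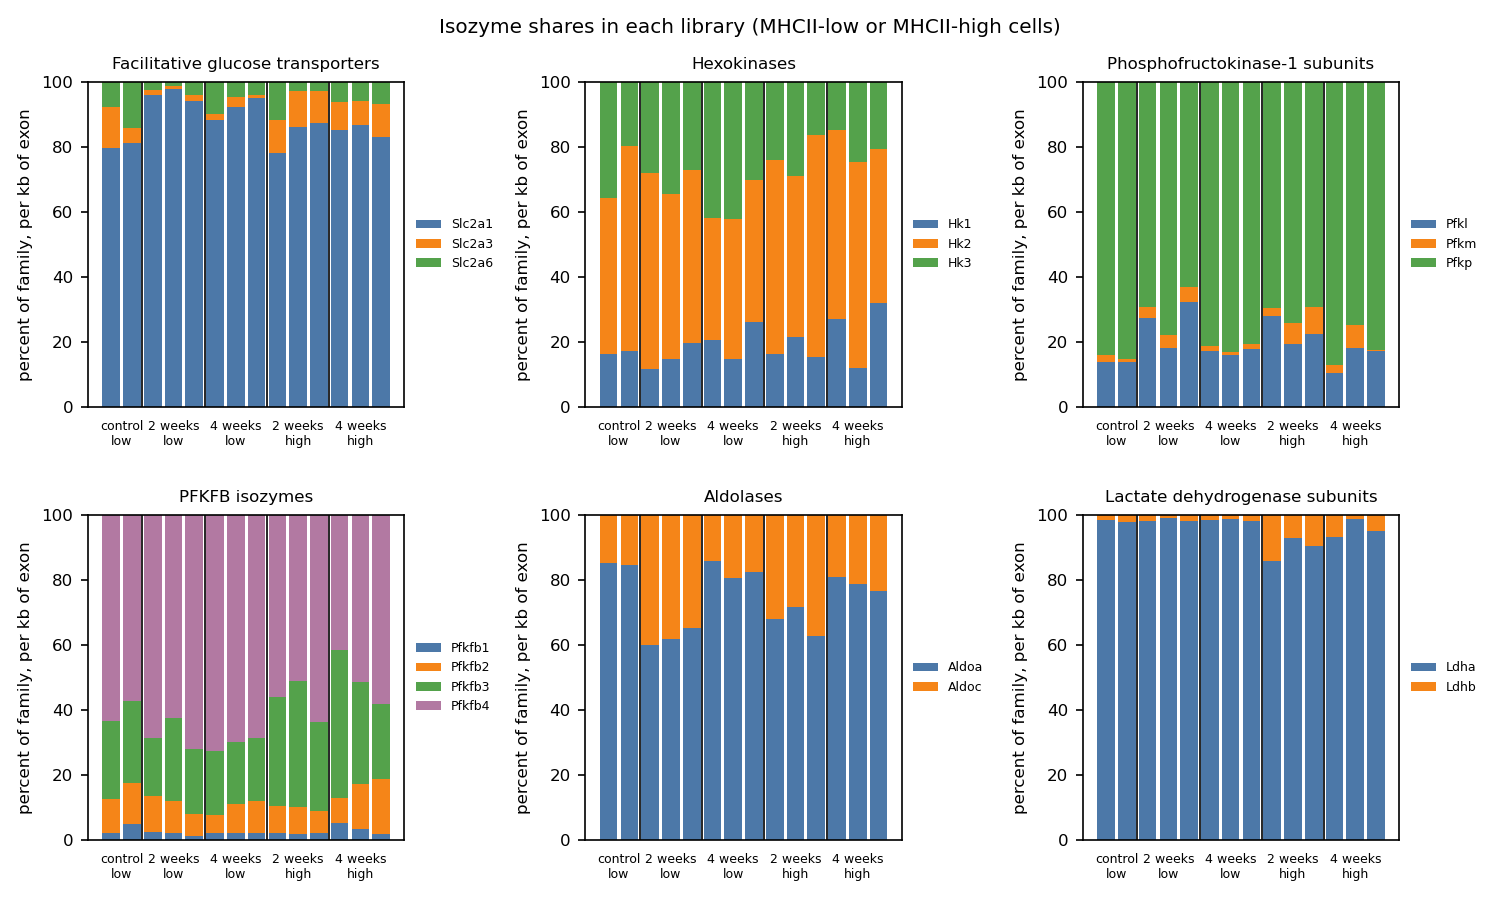
Share of each isozyme in its family (y axis, percent, from normalized counts per kb of exon) in each of the 14 libraries (bars, by group). The Aldoc part is widest in the 2-week libraries, at 37.6% in MHCII-low and 32.5% in MHCII-high cells on average.

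From triose phosphate to pyruvate, limma called none of the 6 members, though edgeR and DESeq2 called Pkm, and several share sequence with other genes, so reads could have been split or dropped. Of the 50-base windows of their transcripts, 82.5% for Gapdh, 72.2% for Eno1, 68.0% for Pgk1, 41.5% for Pgam1, 34.4% for Pkm and 7.5% for Tpi1 also occur in another annotated gene, mostly pseudogenes. Pgk1 and Pgam1 were at 54.6 and 44.4 normalized counts per kb of exon, and Gapdh, often used as a reference transcript, at 299.2, below Aldoa at 2764.1. The part of these copies, or of the exon lengths used, in those levels was not tested, and levels of these genes are uncertain.

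Pkm, the gene of the pyruvate kinase expressed in macrophages, had 2258 and 2576 normalized counts in controls, 3497, 3034 and 4189.6 in 2-week MHCII-low and 4385, 2337 and 2962 in 4-week MHCII-low cells. MHCII-high cells had 2413, 2494 and 3029.5 at 2 weeks and 2287, 2349 and 2399 at 4 weeks. At 2 weeks the MHCII-high libraries lay below the MHCII-low ones, and over both times the difference was -0.42 ± 0.14 (limma adjusted p 0.078, edgeR adjusted p 0.037, DESeq2 adjusted p 0.028). Tpi1, triose phosphate isomerase, had 856 and 554 in controls, 799, 717 and 841 in 2-week and 1008, 694 and 558 in 4-week MHCII-low cells. In MHCII-high cells it had 592, 955 and 836 at 2 weeks and 1018, 591.5 and 708 at 4 weeks, and its group means lay between 705.3 and 794.2. Gapdh had 1248 and 1066 in controls, 1275, 1016 and 1579 in 2-week and 1636, 996 and 1148 in 4-week MHCII-low cells. In MHCII-high cells it had 928, 1258 and 1206 at 2 weeks and 1174, 1307 and 1473 at 4 weeks. It was called in no comparison by limma, edgeR or DESeq2. Eno1, which encodes enolase, had 427 and 473.5 in controls, 438.5, 516 and 678 in 2-week and 846, 557 and 465 in 4-week MHCII-low cells, and 464, 966 and 657 and then 670.2, 518 and 556 in MHCII-high cells.

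The genes of the steps between Gapdh and enolase were low. Pgk1, phosphoglycerate kinase, had 99.7 and 169 normalized counts in controls, 89.5, 140.1 and 106 in 2-week and 132, 126.5 and 137.5 in 4-week MHCII-low cells, and 149.7, 109 and 125 and then 110.3, 130.2 and 91.3 in MHCII-high cells. Pgam1, phosphoglycerate mutase, had 86.5 and 67.2 in controls, 121, 62.1 and 92.0 in 2-week and 53.2, 96.1 and 44.8 in 4-week MHCII-low cells, and 70.5, 90.9 and 133 and then 106, 62.8 and 51.1 in MHCII-high cells. Their thinnest libraries held 40 and 39 reads. In none of the tested contrasts of 2 groups did the libraries part without overlap for Eno1, Pgk1 or Pgam1. Outside these, all 4-week MHCII-high libraries lay above both controls for Eno1.

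**Figure D4:**
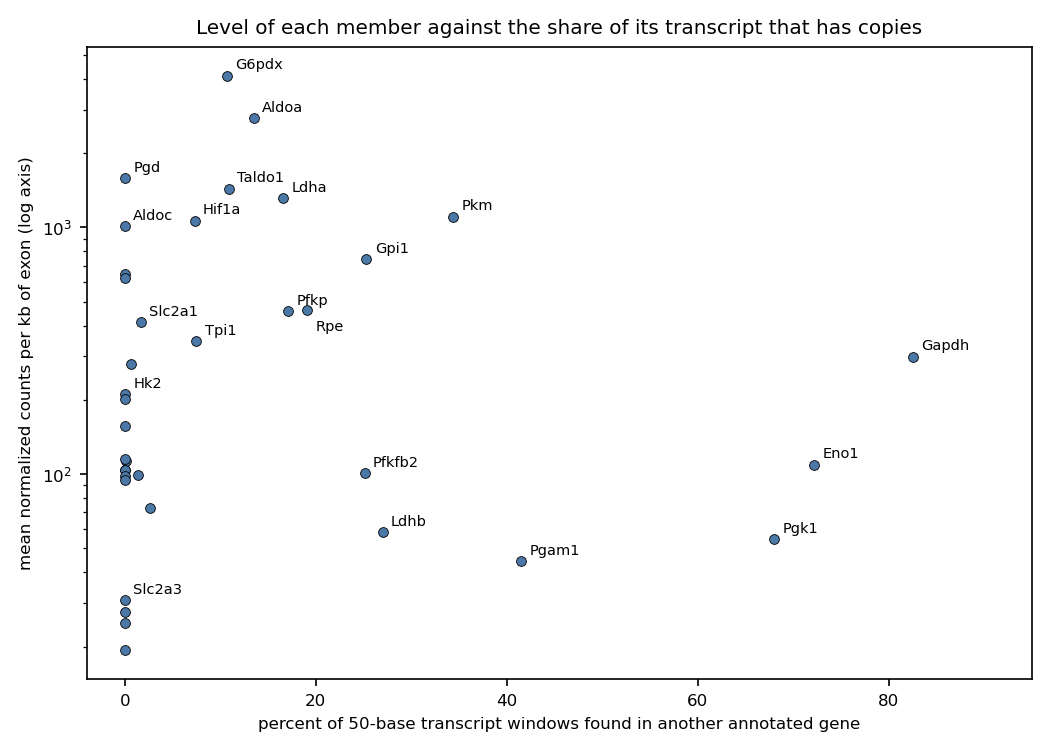
Mean normalized counts per kb of exon over 14 libraries (y axis, log scale) against the percent of a member's 50-base transcript windows that occur in another annotated gene (x axis), 1 point per member. Gapdh, Eno1 and Pgk1 lie at 82.5%, 72.2% and 68.0%, and Aldoc, Hk2, Slc2a3 and Pgd at 0.

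Lactate dehydrogenase turns pyruvate into lactate and renews NAD+, pyruvate dehydrogenase kinases (Pdk1, Pdk3, Pdk4) hold pyruvate back from the mitochondria, and Slc16a1 (MCT1) and Slc16a3 (MCT4) carry lactate across the membrane. Limma called none of these 7 members in any comparison. At an unadjusted p under 0.05 there were at most 2 in a comparison, edgeR called Ldhb over both times, and DESeq2 called Ldhb there and at 2 weeks and Pdk4 in 2-week MHCII-low cells against control. Ldha had 2236 and 4281 normalized counts in controls, and these 2 libraries lay further apart than any pair of group means. In MHCII-low cells it had 5041, 3868 and 4980.3 at 2 weeks and 4239.8, 4082 and 3859.5 at 4 weeks, and in MHCII-high cells 3870.3, 3588 and 4173 and then 3342, 3309 and 3918. The 2-week MHCII-low change from control was 0.57 ± 0.22 (limma adjusted p 0.25), and without control replicate 3 it was 1.04 (limma adjusted p 0.032).

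Ldhb, the subunit that favours the return of lactate to pyruvate, was at 333, 147.5 and 231 normalized counts in 2-week MHCII-high cells. MHCII-low cells had 53.7, 22.3 and 51.8 at 2 weeks and 39.4, 30.4 and 39.4 at 4 weeks, and controls 19.1 and 49.9. The 4-week MHCII-high cells had 127, 22 and 109.5, of which replicate 2 lay among the MHCII-low values. The difference was 2.47 ± 0.73 at 2 weeks (limma adjusted p 0.072) and 1.68 ± 0.52 over both times (limma adjusted p 0.051), and without that replicate 2.08 over both times (limma adjusted p 0.0076). DESeq2 gave an adjusted p of 0.0055 and 0.0013 for these. The thinnest library held 14 Ldhb reads, and 27.0% of its transcript windows occur in another gene.

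Pdk4, the kinase raised by fasting and lipid use, had 561 and 605 normalized counts in controls and 242, 271 and 194 in MHCII-low cells at 2 weeks. It had 358, 485 and 437 in 4-week MHCII-low cells, and with MHCII high 181, 254 and 230.2 at 2 weeks and 189, 392 and 487 at 4 weeks. All 12 treated libraries lay below both controls, and the 2-week MHCII-low change was -1.32 ± 0.39 (limma adjusted p 0.096, DESeq2 adjusted p 0.018). Pdk3 was the kinase with the highest level per kb (201.0), with 463 and 448 normalized counts in controls, 349, 446 and 535 in 2-week and 583, 558 and 574 in 4-week MHCII-low cells. In MHCII-high cells Pdk3 had 677, 375 and 386 at 2 weeks and 445, 596 and 773 at 4 weeks, without a call. Slc16a3 had 530.5 and 567 in controls, 674, 524 and 966 in 2-week and 833, 516 and 584 in 4-week MHCII-low cells. In MHCII-high cells it had 701, 580.0 and 818 at 2 weeks and 412, 468 and 422 at 4 weeks, the latter below every other library, with a change between the times of -0.68 ± 0.27 (limma adjusted p 0.25). Pdk1 and Slc16a1 had group means from 667.7 to 908.7 and from 283.2 to 581.1, and Slc16a1 reached 1075 in replicate 3 of the 4-week MHCII-high cells beside 227 and 323 in the others.

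In the pentose phosphate pathway 3 of 7 members were lower in MHCII-high cells over both times (G6pdx, Pgd and Taldo1), none was higher, where 2.21% of all genes were called lower and 5% higher. The median difference of the 7 was -0.41 where that of all genes was 0.02. The median stayed below 0 under all 24 alternatives (-0.48 to -0.26). At single times limma called 0 of 7 (2.87% of all genes at 2 weeks and 2.5% at 4 weeks), with 4 at 2 weeks and 1 at 4 weeks at an unadjusted p under 0.05, edgeR called 0, and DESeq2 called Taldo1 at 2 weeks and 0 at 4 weeks. G6pdx (ENSMUSG00000031400, chrX:74409483-74429194), the rate-limiting NADPH-forming dehydrogenase at the head of the pathway, had the highest level per kb of all members (4120.2). It had 10354 and 12981 normalized counts in controls, 12914, 12624 and 16469 in 2-week MHCII-low and 15788, 14502 and 16363 in 4-week MHCII-low cells. MHCII-high cells had 11441, 8278 and 13032 at 2 weeks, which overlapped the MHCII-low ones, and 11522, 11074 and 10321 at 4 weeks, which did not. Over both times it was lower by 0.44 (SE 0.12, 0.738 of the level, limma adjusted p 0.028).

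Pgd (ENSMUSG00000028961, chr4:149149991-149166771), the next NADPH-forming dehydrogenase, had 9017 and 10596 normalized counts in controls. MHCII-low cells had 13284, 10198 and 13327 at 2 weeks and 13008, 9669.8 and 10819 at 4 weeks. MHCII-high cells had 9809.5, 6689 and 10051 at 2 weeks and 9195, 8513 and 8403 at 4 weeks, below the MHCII-low libraries at each time. Over both times it was lower by 0.42 (SE 0.12, 0.749 of the level, limma adjusted p 0.042). Taldo1 (ENSMUSG00000025503, chr7:141392199-141402968), the transaldolase of the non-oxidative arm, had 2839 and 1889 normalized counts in controls. MHCII-low cells had 2819, 2565 and 4097 at 2 weeks and 4388, 3101 and 3873 at 4 weeks. MHCII-high cells had 1793, 1987 and 2252 at 2 weeks, below the MHCII-low ones, and 2410.1, 2732 and 3387 at 4 weeks, which overlapped them. Over both times it was lower by 0.52 (SE 0.15, 0.697 of the level, limma adjusted p 0.036).

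These 3 calls were near the threshold. With the mitochondrial ribosomal RNA share as a covariate the limma adjusted p was 0.17 for G6pdx, 0.37 for Pgd and 0.26 for Taldo1, and the calls were lost under 6, 13 and 10 of 24 alternatives. Without replicate 3 of the 4-week MHCII-high cells it was 0.054, 0.07 and 0.021. All 3 calls were lost with no filter, without replicate 3 of the 2-week or of the 4-week MHCII-low cells and without replicate 2 of the 2-week MHCII-high cells. Pgd and Taldo1 were also lost without replicate 1 of either MHCII-low group or replicate 1 or 2 of the 4-week MHCII-high cells, Taldo1 without replicate 1 of the 2-week MHCII-high cells, and Pgd without either control and with the GC trend removed. Tkt, transketolase, had a difference of -0.41 ± 0.15 that did not pass in limma (adjusted p 0.098) and passed with edgeR (-0.52, adjusted p 0.043) and DESeq2 (-0.46, adjusted p 0.037). At 2 weeks its normalized counts were 5066, 4221 and 7124 with MHCII low and 3517, 3710.1 and 3899 with MHCII high. The isomerase and epimerase genes Rpia and Rpe had group means from 447.5 to 549.3 and from 1351.4 to 1513.6, and were not called. Pgls, the lactonase, had 314, 322 and 331 normalized counts in MHCII-high cells at 2 weeks and 595, 530.3 and 2505 at 4 weeks. Its high value was in replicate 3, the library that stood apart on the second component, and the change was 1.52 ± 0.44 (limma adjusted p 0.098, DESeq2 adjusted p 0.0032).

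Hif1a passed no test. It had 4913 and 6222 normalized counts in controls, 5609, 6807 and 6639 in 2-week MHCII-low and 3611, 5542 and 6068 in 4-week MHCII-low cells. MHCII-high cells had 7942, 7471 and 9372 at 2 weeks, above every other library, and 5249, 6213 and 6268 at 4 weeks. The difference at 2 weeks was 0.38 ± 0.18 (limma adjusted p 0.33), and the protein, whose stability is what oxygen controls, was not measured here. In a list of 27 HIF pathway and target genes outside glycolysis, 23 were tested. Limma called 2 over both times (8.7%, beside 7.21% of all genes). Between the times it called 1 in MHCII-low cells (4.35%, beside 0.857%) and 2 in MHCII-high cells (8.7%, beside 1.07%). Il1b was called in 3 comparisons. It was 0.75 higher in MHCII-high cells over both times (limma adjusted p 0.033). It was lower at 4 than at 2 weeks in MHCII-low (-1.69, limma adjusted p 0.0039) and MHCII-high cells (-1.37, limma adjusted p 0.028). Anxa2 was lower in MHCII-high cells over both times (-0.43, limma adjusted p 0.019). Vhl, which marks HIF subunits for destruction, fell between the times in MHCII-high cells (-1.12, limma adjusted p 0.046). With edgeR neither Vhl nor Il1b over both times was called, and with DESeq2 all of these were. DESeq2 also called Ndrg1 and Anxa2 at 2 weeks, Ndrg1 and Ddit4 over both times and Epas1 between the times in MHCII-high cells. For 2-week MHCII-low cells against control limma called 0 of the 23, with 4 at an unadjusted p under 0.05 and none with edgeR or DESeq2.

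Among 44 other genes of glycolysis, the pentose phosphate pathway and pyruvate entry, 37 were tested and limma called 4, each in 1 comparison. The 2 called over both times made 5.41% of the 37, beside 7.21% of all genes. The 1 between the fractions at 4 weeks made 2.7%, beside 2.5%. The 1 in 2-week MHCII-low cells against control made 2.7%, beside 1.91%. Emb, a partner of lactate transporters, was higher in MHCII-high cells over both times (0.66, limma adjusted p 0.0066), and Bsg, the other partner, lower (-0.45, limma adjusted p 0.037). Slc2a8 was lower in MHCII-high cells at 4 weeks (-1.88, limma adjusted p 0.027), with 108, 54.9 and 104.7 normalized counts beside 576, 304 and 181. Mpc2, a subunit of the mitochondrial pyruvate carrier, was lower in 2-week MHCII-low cells than in controls (-1.16, limma adjusted p 0.029). It had 438.5, 467 and 654 normalized counts there beside 1151.5 and 1131. With edgeR the Mpc2 call was lost, and DESeq2 called Mpc2 and Tktl1 in that comparison. Both tools also called Slc2a8 over both times. DESeq2 further called Emb at 2 weeks and between the times in each fraction, and Shpk between the times in MHCII-high cells. Of 20 genes of gluconeogenesis and glycogen, 17 were tested. Limma called 1 between the fractions at each time (5.88%, beside 2.87% and 2.5% of all genes). It called 2 over both times (11.8%, beside 7.21%) and 1 in 2-week MHCII-low cells against control (5.88%, beside 1.91%). Pygl, glycogen phosphorylase, was lower in MHCII-high cells at 2 weeks (-0.76, limma adjusted p 0.008) and at 4 weeks (-0.65, limma adjusted p 0.025). Over both times Pygl (-0.71, limma adjusted p 0.00022) and G6pc3 (-0.51, limma adjusted p 0.039) were lower. Gyg, glycogenin, rose over control in 2-week MHCII-low cells (0.90, limma adjusted p 0.033). Of 15 tested regulators limma called 0, with at most 4 at an unadjusted p under 0.05 in a comparison. In that list edgeR called Myc over both times, and DESeq2 called Myc and Mlxip there and Myc at 2 weeks and between the times in MHCII-high cells.

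Libraries were also compared without a model, by whether groups overlapped. In 2-week MHCII-low cells 10 members lay above both controls in all 3 libraries, where 13.7% of all genes did: Slc2a1, Hk2, Hk3, Pfkl, Pfkm, Aldoa, Aldoc, Pkm, Slc16a1 and Tkt. Pfkp and Pdk4 lay below, where 21.6% of all genes did. At 4 weeks 9 members lay above the same controls (11.4% of all genes) and 3 below (16.0%). At 2 weeks 5 members (Slc2a3, Hk2, Pfkfb3, Ldhb and Hif1a) were higher in all MHCII-high than in all MHCII-low libraries (12.9% of all genes). The 7 lower ones were Gpi1, Aldoa, Aldoc, Pkm, Pgd, Tkt and Taldo1 (8.26% of all genes). At 4 weeks 3 were higher (8.26%) and 5 lower (8.13%). Between the times 10 members were lower in all 4-week than in all 2-week MHCII-high libraries (9.06%) and 5 in MHCII-low cells (6.76%). The higher ones numbered 2 in MHCII-high cells, Pgls and Taldo1 (5.9%), and 3 in MHCII-low cells, Pfkp, Pdk3 and Pdk4 (7.22%). The map of members by library gives the values behind these counts for every member.

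**Figure D5:**
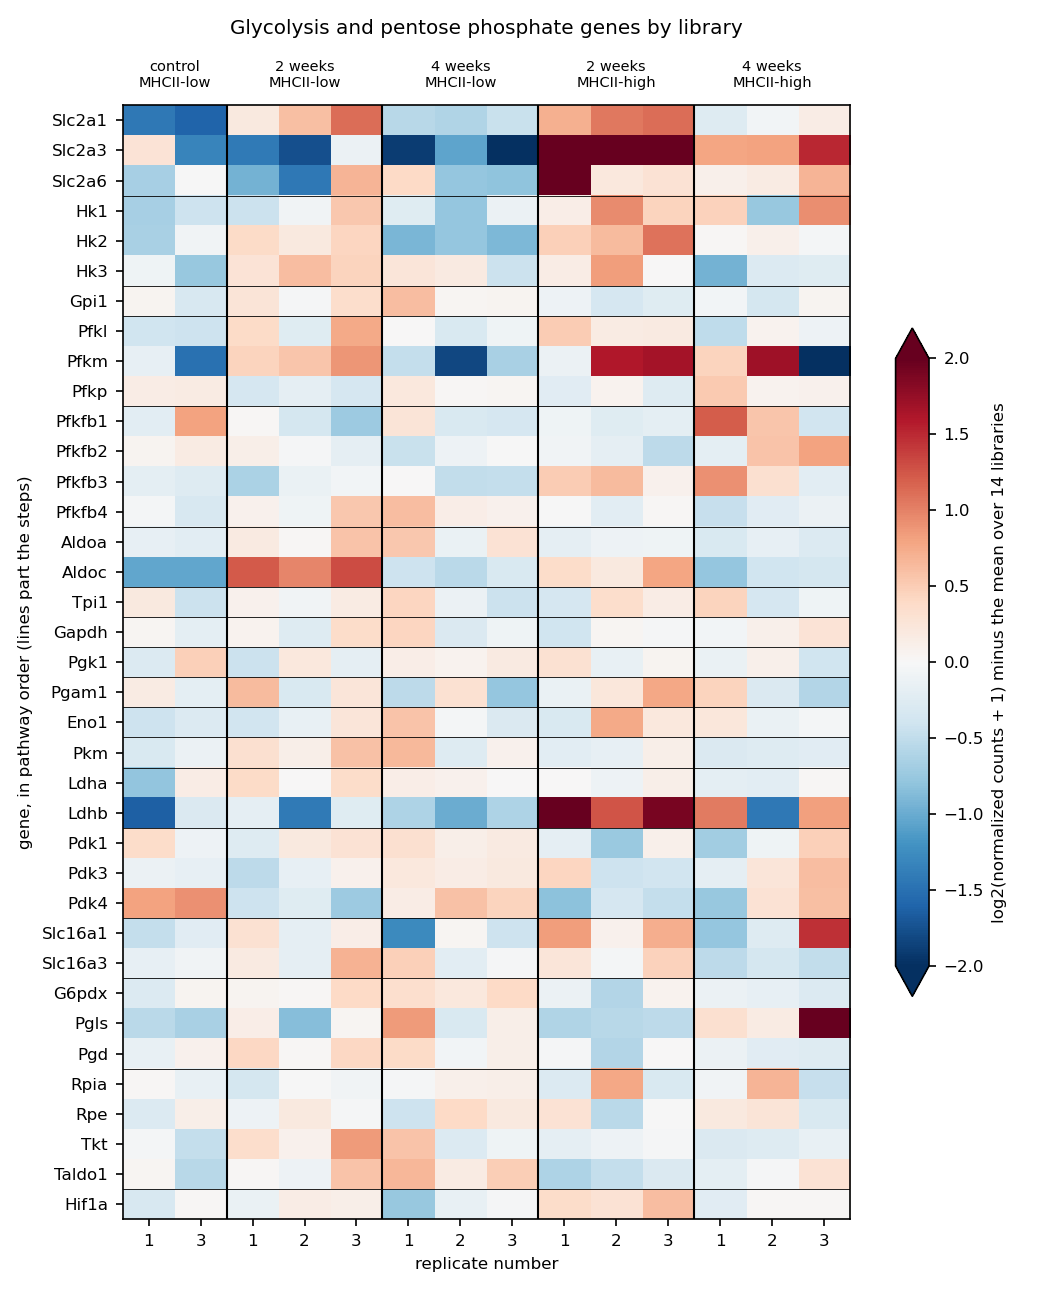
Log2(normalized counts + 1) of each member less its mean over 14 libraries (colour), with members in pathway order (rows) and libraries by group (columns). The Slc2a1 and Aldoc rows are lowest in both controls, and the Slc2a3 row is highest in the 6 MHCII-high libraries.

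Some markers of other cell types moved with these contrasts. Of 12 genes of monocyte-derived or interstitial macrophages, 7 were higher in MHCII-high cells at 2 weeks and 7 at 4 weeks, and 6 were higher in 2-week MHCII-low cells than in controls. Their summed level was 25164.5 to 26383.2 in controls, 37298.1 to 40387.7 and 26449.3 to 30548.0 in MHCII-low cells at 2 and 4 weeks, and 70524.2 to 83566.0 and 44382.5 to 50358.5 in MHCII-high cells. No gene of that list was at 0 throughout a group. Of 10 dendritic cell genes 4 and 5 were higher in MHCII-high cells at 2 and 4 weeks. They summed to 1269.4 to 2770.6 in MHCII-high and 115.1 to 376.2 in MHCII-low libraries, and Cd209a was at 0 in both treated MHCII-low groups. Of 14 alveolar macrophage genes 7 and 4 were lower in MHCII-high cells. Among 9 tested B and T lymphocyte genes 1 and 3 were higher, with Cd79b at 0 in 4-week MHCII-low cells, and Cd2 was lower at 2 weeks (-0.80, limma adjusted p 0.0037). Summed levels were 6609.1 to 14059.6 over all groups, most of it Cd2, which lay between 5003.6 and 7951.5 in MHCII-high and between 8864.7 and 11865.1 in MHCII-low libraries. Among 10 genes listed for alveolar epithelium 3 and 3 were higher, with summed levels of 9360.1 to 34709.0. Scgb1a1 of this list, a gene of airway club cells, was lower over both times (-1.97, limma adjusted p 0.021). It held 24712.3 of the highest sum, in replicate 1 of the 4-week MHCII-low cells. Abca3 held 3626.9 to 6276.5 in each library, so these sums do not follow the surfactant genes. Sftpc of that list was 11.1-fold higher in 2-week MHCII-low cells than in controls (limma adjusted p 0.0017). It was the only 1 of the 10 that limma called there, and 6 of the 10 lay above 0 and 4 below. Of the 6 tested neutrophil genes limma called none between the fractions (1 at an unadjusted p under 0.05 at 4 weeks and 1 over both times, and none with edgeR or DESeq2). Mmp8 of that list was 4.71-fold higher in 2-week MHCII-low cells than in controls (limma adjusted p 1.9e-06). By 4 weeks it fell to 0.367 of that level (limma adjusted p 0.00025), and these are the contrasts where Slc2a1 and Aldoc rose and fell. Mmp8 was the only 1 of the 6 called in each. Against control 4 of the 6 lay above 0 and 2 below, and between the times all 6 lay below. All 12 cell cycle genes lay below 0 in 2-week MHCII-low cells against control (median -0.56, beside -0.09 over all genes), where limma and edgeR called none, 4 were at an unadjusted p under 0.05 and DESeq2 called Kif11 and Top2a. In 4-week MHCII-low cells against control 11 of the 12 lay below 0 (median -0.74, beside -0.06 over all genes). Limma and edgeR called none there, 4 were at an unadjusted p under 0.05 and DESeq2 called Top2a and Mki67. The summed cell cycle level was 18636.7 to 20330.3 in controls. It was 9889.5 to 13003.5 in 2-week and 8987.7 to 11122.7 in 4-week MHCII-low cells. The part of all these marker genes in the Slc2a3, Hk2 and Pfkfb3 differences, in the Slc2a1 and Aldoc rise or in the lower pentose phosphate genes was not tested.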

How the data were processed

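Libraries were made from cells sorted with antibodies, with mRNA captured on beads and amplified cDNA, per the labels' protocols. The submitters' processing notes name mm10, STAR and DESeq2, with no versions or roles. The deposited table holds the authors' normalized counts (a signal per gene) for 14 libraries and each gene's GC percent, per the file headers. Each library's values were whole multiples of 1 step (0.39 to 2.24), for 100% of values up to 1000 within a rounding of 0.05, which gave back whole reads: 15106415 to 88059630 per library. No molecular identifiers are stated, so reads are not independent molecules.

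An edgeR test had been planned for raw counts. Since the values are normalized, log2(value + 1) was fitted with limma 3.58.1 (R 4.3.3, trended variance) over all 14 libraries and the 17390 genes that reached 10 normalized counts in 2 or more libraries, with Benjamini-Hochberg adjustment and a threshold of 0.05. Rows without a symbol (652) were kept under their identifier. Comparisons against control share 2 control libraries. The 2-week MHCII-low libraries enter contrasts against control, between times and between fractions, and the interaction. With this pseudocount the fold changes of low genes are understated. Alternatives were edgeR 4.0.16 and DESeq2 1.42.0 on recovered reads, TMM factors, a pseudocount of 10, no filter or a minimum of 100, removal of a GC trend, the mitochondrial ribosomal RNA share as a covariate, a replicate block and leaving out each library. Scripts were tested on simulated data. Shared windows came from GENCODE M21 transcripts. By the rule for named genes, a member is given in every library where it passed the threshold or had the highest level per kb of its step, others by range, and other lists by at most 3 called genes per comparison. Members and lists were chosen with earlier results of these data known.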

Additional observations from a re-analysis of the deposited data

How the results depend on the processing

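Fold changes of called members kept their direction in all 425 alternatives and their call in 354, and 71 lost it. Leaving out a library of a group outside a contrast cannot change its fold change. Part of the 425 therefore kept their direction by construction. Of 188 alternative counts of called members, 154 were equal to the main count or stayed within 1.5 times. These include 4-week MHCII-low cells against control and the interaction, where the main count was 0. There only another count of 0 was taken as unchanged, which says little about stability. Over both times the count of members between MHCII fractions (7) was 12 with edgeR (4 higher, 8 lower), 13 with DESeq2 (4 higher, 9 lower), 2 with no filter, 2 with the mitochondrial covariate and 2 to 7 when leaving out 1 library. Calls over all genes moved too, from 1254 to 1431 with edgeR, 2122 with DESeq2, 917 of 26247 tested with no filter and 500 with the covariate. At 2 weeks it (2) was 4 with DESeq2, 1 with no filter, 1 with the covariate and 1 to 3 when leaving out 1 library. At 4 weeks it (2) was 1 with edgeR, 1 with the covariate and 1 to 3 when leaving out 1 library. Between times in MHCII-high cells it (2) was 1 with edgeR, 4 with DESeq2, 1 with no filter, 1 with the covariate and 0 to 2 when leaving out 1 library. Leaving out 1 library gave 2 to 3 both for MHCII-low cells against control at 2 weeks and between their times, and DESeq2 called 1 member at 4 weeks against control. The cause of these shifts was not tested. Each gene's group mean was first taken from its log2 values. MHCII-high and MHCII-low libraries of the same time were then correlated on the deviations left. On these deviations same-numbered libraries correlated at 0.11, 0.07 and 0.02 at 2 weeks and 0.01, 0.03 and 0.02 at 4 weeks. Pairs of different numbers lay at -0.12 to 0.08. All 6 same-numbered pairs were above 0. Replicate 2 of the 2-week MHCII-high cells correlated best with another number, by 0.08 beside 0.07, a gap too small to read. The main fit had been planned without pairs, because the labels do not call the numbers animals. Whether they mark shared animals was not settled by these correlations. With the replicate block as a factor the counts were 3, 2, 9, 2, 0, 3, 2 and 0 in the order of the comparisons in the report, and with the block within time 2, 2 and 8 between fractions and 0 for the interaction. Counts as low as 5 (Pfkm), 14 (Ldhb) and 15 (Slc2a3) reads limit the precision of those members.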
